A study of Mus musculus with 6 samples.

Results

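The genes for non-collagen matrix glycoproteins and proteoglycans were followed in mouse embryonic fibroblasts (MEFs) that had crossed narrow pores. The 43 genes were chosen by name, as adhesive and matricellular glycoproteins (14 genes), elastic fibre and microfibril proteins (12), small leucine-rich proteoglycans (7), large proteoglycans (2), and nidogens and laminin chains (8), out of 55335 genes in the count table. All are annotated as protein coding, and all had a row in the table. Earlier results of these data were known when the genes were chosen. RNA sequencing of polyadenylated RNA compared WT MEFs labelled as control and described as parental cells (Ctrl, 3 libraries) with WT MEFs collected 15 h after seeding on a transwell, a culture insert with a porous membrane, once they had passed pores of 3 μm (Confine). The Confine group had 3 deposited columns, but columns 1 and 2 held the same count for all 55335 genes, so they entered as 1 library and the group had 2 libraries, named 1 and 3 here. No group carried an added allele or drug.

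Several features of the design limit what the comparison can show. The labels do not say that the replicates came from separate cultures, so every p-value measures the spread between these libraries only, which may be technical. Nothing says that Ctrl cells sat on a membrane, so passage through the pores, culture on the membrane and selection of the cells that crossed cannot be told apart. In bulk RNA a smaller number of cells of a type and less RNA per cell cannot be told apart either. Libraries held 22287210 to 27853805 counts in Ctrl and 27290138 to 32537550 in Confine, so that 3 counts, taken as the limit of detection, corresponded to 0.101 to 0.128 CPM, the unit of counts scaled to library size that is used throughout. Of 11 fibroblast markers 10 were expressed highly enough for testing, with summed levels of 8460 to 9170 CPM in Ctrl and 14700 to 15500 CPM in Confine, while Thy1 was at or near 0. None of 8 epithelial markers passed the filter (sums of 0.203 to 0.675 CPM over all libraries). The sums of endothelial markers were 0.595 to 1.36 CPM in Ctrl and 2.43 to 2.70 CPM in Confine. That rise came from Vwf alone, the only gene of the list tested (7 to 17 counts in Ctrl, 72 and 64 in Confine, log2 fold change 2.64). Pecam1, Cdh5, Kdr, Tek and Cldn5 were at or near 0 and did not rise. The defining leukocyte genes Ptprc and Adgre1 were at or near 0, and the leukocyte list summed to 7.23 to 8.39 CPM in Ctrl and 18.3 to 25.9 CPM in Confine. Of its 3 tested genes Cd68 and Csf1r were higher in Confine (log2 fold changes 2.67 and 1.45) and Lyz2 was lower (-2.64). The smooth muscle and pericyte list summed to 59.3 to 79.9 CPM in Ctrl and 130 to 195 CPM in Confine, mostly from Smtn. Of its 5 tested genes Smtn, Des and Notch3 were higher, Rgs5 was lower (log2 fold change -2.57) and Cnn1 was not called. The cartilage list summed to 37.2 to 46.3 CPM and 68.2 to 91.2 CPM, nearly all of it Sox9, while Col2a1, Col9a1 and Chad were at or near 0. The neural list summed to 15.9 to 21.4 CPM and 12.8 to 14.3 CPM, with neither of its 2 tested genes called. The part of these marker shifts in the results below was not tested.

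Fibroblasts secrete most of the matrix around them. Fibronectin is assembled at the cell surface through integrins and serves as a scaffold for other matrix proteins, fibrillins polymerize into microfibrils on which elastin is laid down with the help of fibulins, and small leucine-rich proteoglycans bind collagen and set the calibre of its fibrils. Laminins, each a trimer of an α, a β and a γ chain, form with nidogens and perlecan the sheet of the basement membrane. Matricellular proteins such as tenascins, thrombospondins and SPARC are secreted into the matrix but act mainly on how cells attach and signal.

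Genes of the small leucine-rich family lie close together in the genome, and the results turn on 2 such neighbourhoods. The 150 bases before the start of each gene of the set there are shown, without Omd, a neighbour outside the set. Those of Ecm1, which was raised and whose stretch holds 3 of the motifs searched, are added. All are RefSeq sequence on build GRCm38.p6, written 5′ to 3′ on the strand of the gene. The positions are chr13:49504660-49504809 (+) for Ecm2, chr13:49544293-49544442 (+) for Aspn, chr13:49607865-49608014 (+) for Ogn, chr1:133921402-133921551 (-) for Prelp, chr1:134037104-134037253 (+) for Fmod and chr3:95739570-95739719 (-) for Ecm1. Capitals mark exact matches, on either strand, to 1 of 5 motifs. The GC box was searched as GGGCGG. The pentamer of the CCAAT box was used as its name gives it. For the TATA box the letters were TATAAA. An AP-1 element was taken as TGACTCA, and the core of a hypoxia response element as ACGTG.
Ecm2: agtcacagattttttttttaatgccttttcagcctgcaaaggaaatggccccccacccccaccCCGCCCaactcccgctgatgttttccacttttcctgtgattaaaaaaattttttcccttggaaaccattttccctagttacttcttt
Aspn: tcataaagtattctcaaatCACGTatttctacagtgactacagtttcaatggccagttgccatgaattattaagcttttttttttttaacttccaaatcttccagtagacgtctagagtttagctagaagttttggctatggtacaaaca
Ogn: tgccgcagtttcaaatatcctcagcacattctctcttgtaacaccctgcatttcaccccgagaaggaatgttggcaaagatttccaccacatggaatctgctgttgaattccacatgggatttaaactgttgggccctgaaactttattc
Prelp: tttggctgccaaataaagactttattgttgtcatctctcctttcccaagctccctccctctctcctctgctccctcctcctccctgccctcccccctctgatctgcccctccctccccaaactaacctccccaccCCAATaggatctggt
Fmod: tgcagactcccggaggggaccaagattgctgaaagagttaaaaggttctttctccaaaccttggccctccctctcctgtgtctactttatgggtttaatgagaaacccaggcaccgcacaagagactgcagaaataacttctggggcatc
Ecm1: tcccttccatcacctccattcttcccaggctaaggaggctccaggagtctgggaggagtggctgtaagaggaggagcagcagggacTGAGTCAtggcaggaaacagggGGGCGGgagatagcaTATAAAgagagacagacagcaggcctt
In the 250 bases before the start, the GC box was present in 32.7% of all 32851 RefSeq promoter windows, in 17 of the 28 genes of the set that had a window, in 11 of the 13 of those that were higher in Confine and in 3 of the 7 that were lower. The TATA box was found in 12.4% of all windows and in 6 of the 28 genes, namely Aspn, Ecm1, Ogn, Svep1, Thbs2 and Tnc. An AP-1 element was held by 4.46% of all windows and by 2 of the 28 genes, Ecm1 and Tnxb. The CCAAT box stood in 33.8% of all windows and 8 of the 28 genes, and the hypoxia core in 16.6% of all windows and 3 of the 28. A gene was counted when any of its windows held the motif, so shares over windows and over genes are not like for like. By window, the 28 genes had 34. Of these, 20 held a GC box, 7 a TATA box, 2 an AP-1 element, 8 a CCAAT box and 4 a hypoxia core. The GC box was in 12 of 15 windows of genes higher in Confine and in 3 of 8 windows of lower genes. These matches describe letters in a window and do not show that a factor binds there. In the printed stretches Ecm1 held a TATA box, a GC box and an AP-1 element, Ecm2 a GC box, Aspn a hypoxia core and Prelp a CCAAT box, while the stretches of Ogn and Fmod held none of the 5 motifs.

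Most of the genes differed between the groups, and more of them were upregulated than downregulated. Of the 43 genes 39 passed the filter on low counts and were tested. In the quasi-likelihood fit of edgeR, with p-values adjusted by the Benjamini-Hochberg method over all 15881 tested genes, 18 of the 39 (46.2%) were higher in Confine at an adjusted p below 0.05 and 8 (20.5%) were lower, where the same call was made for 12.8% and 10.2% of all tested genes. The median log2 fold change was 0.47 for the 39 genes and 0.00 for all tested genes. Because the genes were chosen with earlier results of these data known, these shares describe the set and do not test it. At the stricter limit of an absolute log2 fold change above 1.5, 3 genes (Tnxb, Ecm1 and Lama4) were higher and 4 (Svep1, Efemp1, Ogn and Nid2) were lower, against 4.89% and 3.11% of all tested genes. Both Confine libraries lay above all 3 Ctrl libraries for 20 of the 39 genes and below them for 12, compared with 25.9% and 23.6% of all tested genes. Scaling by library size alone in place of TMM, which moved the median of all tested genes by -0.21, gave 12 higher and 12 lower genes, with no excess of upregulated genes. Leaving out Confine library 3 left 12 higher and 6 lower genes, and leaving out Confine library 1 left 13 and 8.

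**Figure D1:**
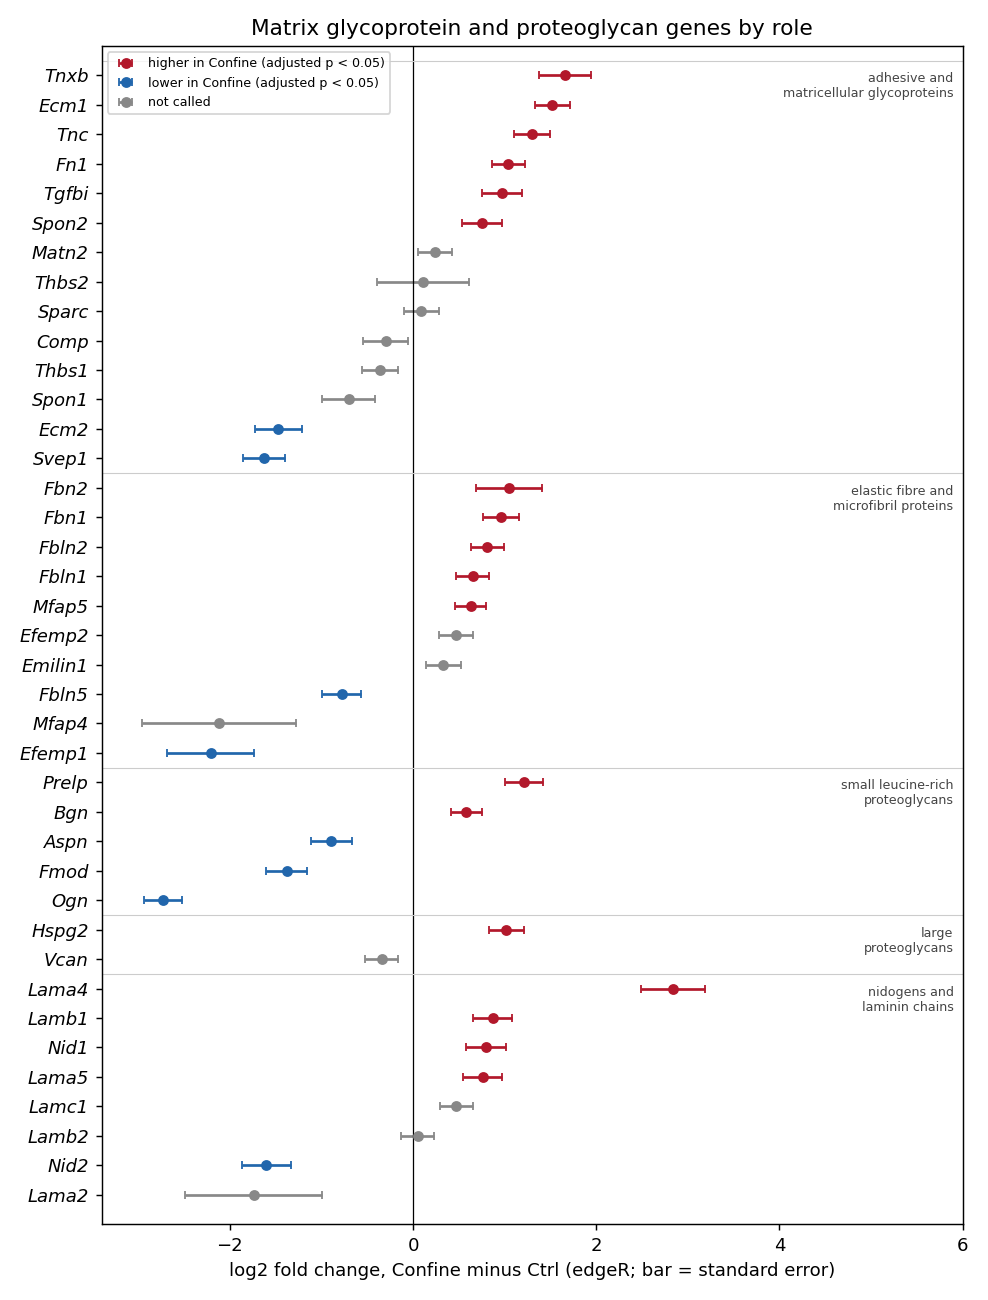
The log2 fold change of Confine against Ctrl (x axis) is plotted for the 39 tested genes, grouped by role on the y axis, with the edgeR standard error as a bar and the call as the colour. Small leucine-rich proteoglycans split from 1.21 for Prelp to -2.73 for Ogn, and laminin Lama4 had the highest value at 2.84.

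The 43 genes together drew 1.07%, 0.922% and 0.931% of the counts in Ctrl and 1.07% and 1.04% in Confine, with means of 0.974% ± 0.0822 (SD, n = 3) and 1.06% ± 0.0174 (SD, n = 2). The groups met at 1.07%, and 3 libraries against 2 cannot reach an exact permutation p below 0.1. As summed TMM-normalized CPM the same genes made up 0.852% to 1.03% in Ctrl and 1.13% and 1.17% in Confine, which did not overlap. Without Sparc, Bgn and Fn1 the share of raw counts was 0.471% ± 0.0403 in Ctrl and 0.448% ± 0.0132 in Confine, and that of TMM-normalized CPM was 0.445% ± 0.0458 and 0.489% ± 0.00938, so the sign of this difference depended on the scaling.

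Levels can be compared between genes only per length, here as normalized CPM per kilobase of annotated exon. In Ctrl the order began with Sparc (557), Bgn (308), Fmod (252), Efemp2 (119), Thbs1 (107), Fbln2 (80.0), Fn1 (65.7), Ogn (57.8) and Ecm1 (53.8). In that order Bgn and Fmod overlapped in range, as did Efemp2 and Thbs1, and each of the genes from Fbln2 to Ecm1 overlapped with the next. In Confine the order was Sparc (594), Bgn (461), Efemp2 (165), Ecm1 (154), Fbln2 (140), Fn1 (135), Fmod (96.6) and Thbs1 (83.2), with overlap from Ecm1 to Fn1 and between Fmod and Thbs1. Fmod had moved from rank 3 to rank 7 and Ogn from rank 8 to rank 22, where Ogn stood at 8.72 CPM per kilobase. At the low end Eln, which encodes elastin itself, had no count in any library, Lum had 1 count in 1 library, and Mfap2 had 0 to 2 counts in Ctrl and 4 and 11 in Confine. Dcn, encoding decorin, had 2, 0 and 0 counts in Ctrl and 27 and 3 in Confine. These 4 genes were not tested.

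**Figure D2:**
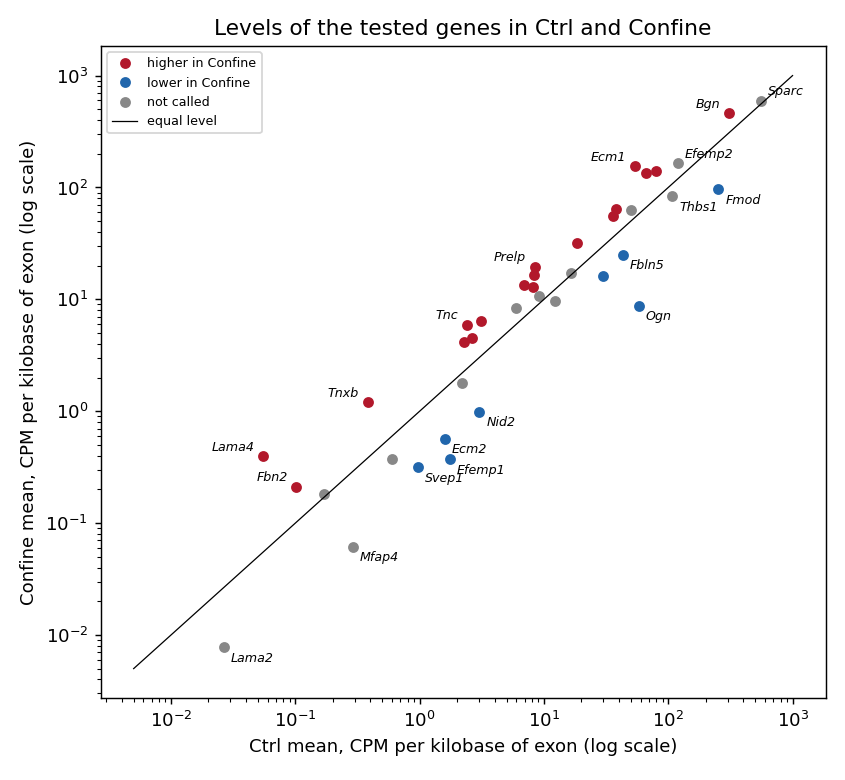
Mean level in Confine (y axis) against mean level in Ctrl (x axis), both as normalized CPM per kilobase of exon on log scales, for the 39 tested genes coloured by call, with the line of equal levels. Sparc (557 and 594) and Bgn (308 and 461) stand at the top, Fmod and Ogn lie below the line, and Lama4 and Tnxb lie above it at low levels.

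Among the adhesive and matricellular glycoproteins 6 of 14 genes were upregulated and 2 were downregulated, with a median log2 fold change of 0.17. These are 42.9% and 14.3%, against 12.8% and 10.2% of all tested genes, so the lower share is near that background. Fn1 encodes fibronectin, the main adhesive glycoprotein of fibroblast matrix. Its normalized CPM was 772, 877 and 655 in Ctrl libraries 1, 2 and 3 and 1530 and 1630 in Confine libraries 1 and 3. All Confine values exceeded all Ctrl values, a 2.06-fold rise (log2 fold change 1.04, SE 0.18, adjusted p = 3.09e-04, edgeR). Tnc, encoding tenascin-C, which modulates adhesion to fibronectin, had 19.6, 22.1 and 14.6 CPM in Ctrl and 46.5 and 45.9 CPM in Confine. Tnc was thus 2.46-fold higher without overlap (log2 fold change 1.30, SE 0.20, adjusted p = 8.10e-05). Tenascin-X is made from Tnxb and associates with collagen fibrils. Tnxb rose from 2.76, 5.78 and 5.40 CPM to 12.8 and 16.4 CPM (log2 fold change 1.66, SE 0.28, adjusted p = 2.01e-04), with each Confine library above each Ctrl library. A stretch of 1090 bases of Tnxb has a 97.6% match in Tnxa, which drew at most 2 counts in any library.

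Ecm1, a secreted glycoprotein that binds perlecan and other matrix proteins and whose upstream stretch is printed above, had 148, 104 and 155 CPM in Ctrl and 378 and 398 CPM in Confine. The Confine libraries lay close together and far above Ctrl, and the rise was 2.86-fold (log2 fold change 1.52, SE 0.19, adjusted p = 1.20e-05). Ecm2, which carries leucine-rich repeats and shares only the name with Ecm1, went the other way, from 8.12, 8.54 and 10.3 CPM to 3.72 and 2.74 CPM. It was 2.77-fold lower in Confine with no overlap (log2 fold change -1.47, SE 0.26, adjusted p = 3.91e-04). Svep1, a large secreted protein that binds integrin α9β1, had 18.5, 15.4 and 13.1 CPM in Ctrl and 5.20 and 4.92 CPM in Confine. Its level fell 3.09-fold, again without overlap (log2 fold change -1.63, SE 0.23, adjusted p = 4.75e-05). The transcript Gm26889 matches 2254 bases of Svep1 at 99.7% but had no row in the count table. Whether reads that fit both were left out of the Svep1 counts was not tested.

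Sparc, a matricellular protein that binds collagen and calcium, was the gene with the highest level per length of the whole set. Its levels were 2490, 1720 and 2120 CPM in Ctrl and 2450 and 2050 CPM in Confine. The groups overlapped, and no difference was called (log2 fold change 0.09, SE 0.19, adjusted p = 0.783). Thbs1, encoding thrombospondin-1, had 679, 723 and 545 CPM in Ctrl and 576 and 434 CPM in Confine and was not called either (log2 fold change -0.36, SE 0.20, adjusted p = 0.203), but it was called lower under scaling by library size alone (-0.57, adjusted p = 0.0356). The ratio of Thbs1 to Fn1 per length, which needs no scaling between libraries, was 1.69, 1.59 and 1.60 in Ctrl and 0.724 and 0.514 in Confine. Its absolute size rests on annotated exon lengths of 6073 bases for Thbs1 and 11685 for Fn1. Without length, the CPM of Fn1 exceeded that of Thbs1 in every library, so the ratio shows a relative shift and not which transcript was more numerous. Tgfbi, which encodes an integrin-binding protein induced by TGF-β, rose from 22.4 to 39.0 CPM up to 54.6 and 68.8 CPM (log2 fold change 0.97, SE 0.22, adjusted p = 0.00279), a call lost without Confine library 1 (adjusted p = 0.0823). Spon2 rose from 79.1 to 152 CPM up to 173 and 202 CPM (log2 fold change 0.75, SE 0.22, adjusted p = 0.0206), a call lost without Ctrl library 1 (adjusted p = 0.0539), Confine library 1 (0.0658) or Confine library 3 (0.204). Spon1, the other spondin, had both Confine libraries, at 3.68 and 4.05 CPM, below the Ctrl range of 4.32 to 8.16 CPM, but was not called (log2 fold change -0.70, SE 0.29, adjusted p = 0.097), although its adjusted p was 0.0421 without Ctrl library 1, 0.0302 with scaling by library size alone and 0.0383 with the identical columns counted as 2 samples. Matn2, Comp and Thbs2, encoding matrilin-2, thrombospondin-5 and thrombospondin-2, had log2 fold changes of 0.24, -0.30 and 0.11 with adjusted p of 0.422, 0.434 and 0.910.

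**Figure D3:**
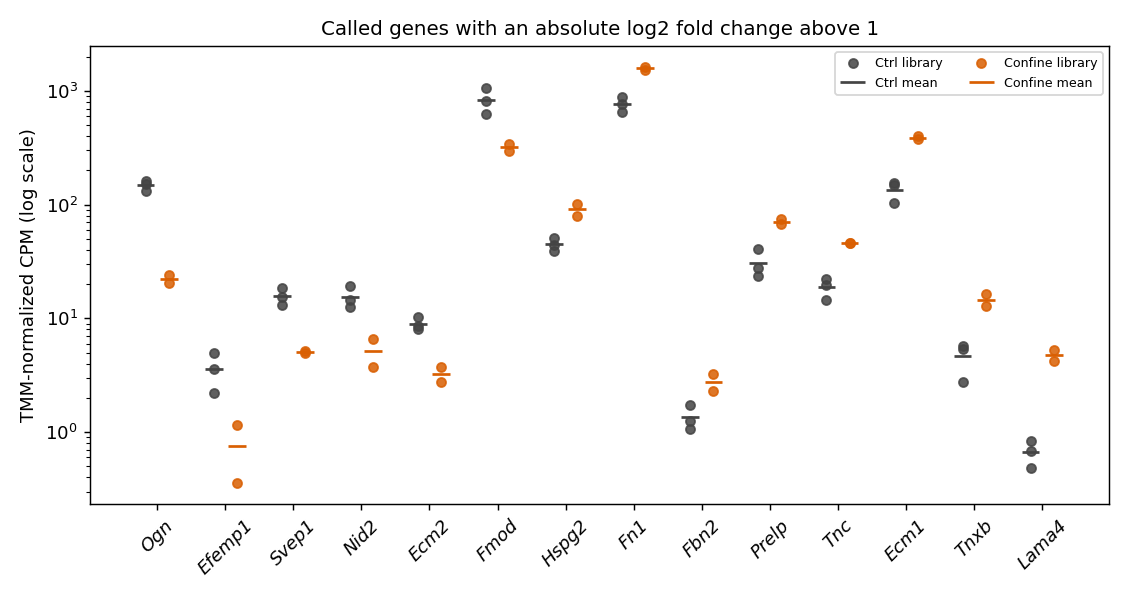
Normalized CPM (y axis, log scale) in each library for the 14 genes that were called and had an absolute log2 fold change above 1, ordered from lowest to highest fold change, with points for libraries and bars for group means. Values run from Ogn (131 to 163 CPM in Ctrl against 20.5 and 24.3 CPM in Confine) to Lama4 (0.484 to 0.831 CPM against 4.21 and 5.30 CPM). The groups do not overlap for any of the 14 genes, but these were selected on the same libraries, so this adds no support to the calls.

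Of the 12 genes for elastic fibres and microfibrils 10 were tested, 5 were upregulated and 2 were downregulated, with a median log2 fold change of 0.55. As shares of the tested genes these are 50% and 20%, where 12.8% and 10.2% of all tested genes were called. Fbn1, which encodes fibrillin-1, the core of microfibrils, rose from 97.6, 90.2 and 62.4 CPM to 167 and 158 CPM (log2 fold change 0.96, SE 0.20, adjusted p = 0.00147). Every Confine library exceeded the Ctrl range. Fbn2, for fibrillin-2, the form most abundant in development, had 1.07, 1.25 and 1.74 CPM in Ctrl and 3.28 and 2.30 CPM in Confine. The difference was 2.07-fold and passed the threshold narrowly (log2 fold change 1.05, SE 0.36, adjusted p = 0.0429). It did not pass with DESeq2, nor with the replicate number as a block, whichever number the repeated library was given. It was lost when Ctrl library 1 (adjusted p = 0.151), Ctrl library 2 (0.0664), Confine library 1 (0.319) or Confine library 3 (0.0650) was left out. Mfap5, encoding a microfibril-associated glycoprotein, rose from 127, 131 and 132 CPM to 213 and 189 CPM (log2 fold change 0.63, SE 0.17, adjusted p = 0.0118), with a call lost without Ctrl library 1 (adjusted p = 0.0525) or Confine library 1 (0.135).

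The fibulins did not move together. Fbln1 rose from 37.1, 33.8 and 36.5 CPM to 51.0 and 61.5 CPM (log2 fold change 0.65, SE 0.18, adjusted p = 0.0128), and Fbln2 rose from 556, 544 and 430 CPM to 824 and 958 CPM (log2 fold change 0.81, SE 0.18, adjusted p = 0.00317). Both gene products bind fibronectin and microfibrils. Without Confine library 3 the adjusted p became 0.215 for Fbln1 and 0.0513 for Fbln2. Fbln5, whose product tethers elastin to cells and microfibrils, fell from 390, 244 and 258 CPM to 181 and 165 CPM (log2 fold change -0.78, SE 0.21, adjusted p = 0.0117). The fall of Fbln5 was not called without Ctrl library 1 (adjusted p = 0.0899), Confine library 1 (0.0672) or Confine library 3 (0.127). Per length, Fbln2 exceeded Fbln5 by 1.54, 2.42 and 1.81 times in the Ctrl libraries and by 4.95 and 6.29 times in the Confine libraries.

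Efemp1, encoding fibulin-3, had the lowest fold change of this class. The Ctrl libraries held 103, 59 and 116 of its counts (3.56, 2.23 and 4.93 CPM), and the Confine libraries 34 and 9 (1.15 and 0.357 CPM). The fall was 4.63-fold without overlap (log2 fold change -2.21, SE 0.47, adjusted p = 0.00175). The estimate ran from -3.30 to -1.63 when single libraries were left out, all of them called. Efemp2, for fibulin-4, which recruits lysyl oxidase to elastic fibres and had the highest level of the class per length, had 529, 375 and 446 CPM in Ctrl and 627 and 621 CPM in Confine. Both Confine libraries were above the Ctrl range, but the difference did not pass (log2 fold change 0.47, SE 0.19, adjusted p = 0.0769), except with the identical columns counted as 2 samples (adjusted p = 0.0302). Emilin1, an elastin-associated glycoprotein, was not called (log2 fold change 0.33, SE 0.19, adjusted p = 0.238). Mfap4, with 10 to 19 counts in Ctrl and 7 and 0 in Confine, was not called (log2 fold change -2.12, SE 0.84, adjusted p = 0.0810). It was called lower with limma-voom (adjusted p = 0.0396), with scaling by library size alone (0.0465) and without Confine library 1 (-6.87, adjusted p = 0.0280), while leaving out Confine library 3, the one with 0 counts, gave -1.22. Its exons overlap those of Mapk7 by 89 bases.

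Of the 7 small leucine-rich proteoglycans 5 were tested and all 5 were called, 2 higher and 3 lower, with a median log2 fold change of -0.89. Calls over all tested genes were 12.8% higher and 10.2% lower. Ogn, encoding osteoglycin or mimecan, showed the deepest fall of the whole set. It had 151, 131 and 163 CPM in Ctrl and 20.5 and 24.3 CPM in Confine. The levels fell 6.62-fold with little spread inside either group (log2 fold change -2.73, SE 0.21, adjusted p = 2.71e-08). Fmod, for fibromodulin, which binds collagen I and regulates its fibril assembly and cross-linking, had 1060, 623 and 813 CPM in Ctrl and 343 and 296 CPM in Confine. It was 2.60-fold lower without overlap (log2 fold change -1.38, SE 0.22, adjusted p = 1.33e-04). Aspn, for asporin, a relative of decorin and biglycan that binds TGF-β and collagen, had 61.5, 65.1 and 82.3 CPM in Ctrl and 45.6 and 29.7 CPM in Confine (log2 fold change -0.89, SE 0.22, adjusted p = 0.00554), and this call was lost without Confine library 3 (-0.61, adjusted p = 0.182).

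Prelp and Bgn rose. Prelp, whose product links basement membranes to connective tissue by binding perlecan and collagen, had 40.4, 23.8 and 27.6 CPM in Ctrl and 67.2 and 74.3 CPM in Confine, a 2.31-fold rise with no overlap (log2 fold change 1.21, SE 0.21, adjusted p = 3.33e-04). Bgn, for biglycan, had the highest level of the class, with 2040, 1790 and 1810 CPM in Ctrl and 2940 and 2680 CPM in Confine. Its rise passed the threshold (log2 fold change 0.58, SE 0.17, adjusted p = 0.0203) but not without Ctrl library 3 (adjusted p = 0.106) or Confine library 1 (0.0882), nor with scaling by library size alone (0.37, adjusted p = 0.118). Ratios within a library set Bgn and Prelp, which rose, against Fmod, which fell. They restate these changes and add no support to them. Bgn was 1.04, 1.56 and 1.21 times Fmod per length in Ctrl and 4.65 and 4.91 times in Confine, and Prelp was 0.0349, 0.0349 and 0.0311 of Fmod in Ctrl and 0.179 and 0.229 in Confine.

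**Figure D4:**
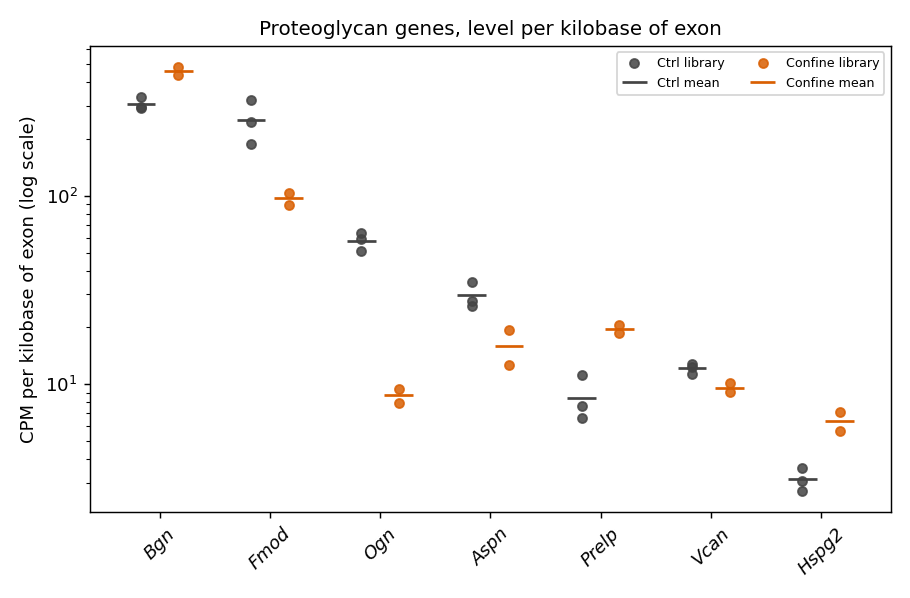
Normalized CPM per kilobase of exon (y axis, log scale) in each library for the 5 tested small leucine-rich proteoglycans and for versican (Vcan) and perlecan (Hspg2), with points for libraries and bars for group means. Bgn and Fmod are near each other in Ctrl (means of 308 and 252) and apart in Confine (461 and 96.6), and Ogn drops from 57.8 to 8.72.

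The position of these genes was looked at after their values were known. On chromosome 13 the genes Ecm2 (49504810 to 49532789), Aspn (49544443 to 49567565), Omd (49582462 to 49592822) and Ogn (49608046 to 49624501) lie on the + strand within 120 kb, in GRCm38 coordinates. Omd, encoding osteomodulin, is not one of the 43 genes. It had 21.4, 23.2 and 34.7 CPM in Ctrl and 14.0 and 9.65 CPM in Confine (log2 fold change -1.16, SE 0.24, adjusted p = 0.00175). All 4 of these genes were called lower in Confine, from -0.89 for Aspn to -2.73 for Ogn, where 10.2% of all tested genes were. Cenpp, a coding gene on the opposite strand whose exons overlap those of Aspn by 7 bases, was not looked at, so this does not describe the whole locus. On chromosome 1 the neighbours Prelp (133910304 to 133921414, - strand) and Fmod (134037254 to 134048277, + strand) are 115.8 kb apart with 0 coding genes between them, and they moved in opposite directions. On chromosome 10 Dcn and Lum, 47.0 kb apart, were both near 0.

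Of the large proteoglycans, Hspg2 was upregulated and Vcan was not called. Hspg2 encodes perlecan, the heparan sulfate proteoglycan of basement membranes, and had 51.4, 38.8 and 43.9 CPM in Ctrl and 80.3 and 102 CPM in Confine. It rose 2.03-fold without overlap (log2 fold change 1.02, SE 0.19, adjusted p = 5.72e-04). Vcan, for versican, the large chondroitin sulfate proteoglycan that binds hyaluronan, had 185, 164 and 179 CPM in Ctrl and 146 and 131 CPM in Confine. Its Confine libraries were below the Ctrl range, yet the difference did not pass (log2 fold change -0.34, SE 0.18, adjusted p = 0.180). It was called lower under scaling by library size alone (-0.55, adjusted p = 0.0252) and with the identical columns counted as 2 samples (-0.33, adjusted p = 0.0478).

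Among nidogens and laminin chains 4 of 8 genes were upregulated and 1 was downregulated, with a median log2 fold change of 0.61. The shares are 50% and 12.5%, beside 12.8% and 10.2% of all tested genes, so the lower share is near the background. Nid1 and Nid2 encode nidogens, which bridge laminin to collagen IV, and they moved apart. Nid1, the member of this class with the highest level per length, rose from 129, 162 and 90.2 CPM to 203 and 241 CPM (log2 fold change 0.80, SE 0.22, adjusted p = 0.0104), a call lost without Ctrl library 3 (adjusted p = 0.0547) or Confine library 3 (0.151). Nid2 fell from 19.4, 14.6 and 12.6 CPM to 3.72 and 6.55 CPM, a 3.04-fold drop with no overlap (log2 fold change -1.60, SE 0.27, adjusted p = 2.67e-04). Exons of Nid2 share 437 bases, 8.45% of their length, with Rtraf on the opposite strand, a gene with a mean of 2178 counts against 304 for Nid2, and the strand setting of the counting was not given in the sources used here. Per length Nid1 was 4.94, 8.30 and 5.34 times Nid2 in Ctrl and 40.6 and 27.4 times in Confine.

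The laminin α chains shifted in make-up. Lama4, the α4 chain of mesenchymal and vascular laminins, had the highest fold change of the whole set, from 0.484, 0.831 and 0.680 CPM to 5.30 and 4.21 CPM. These levels rest on 14, 22 and 16 counts in Ctrl and 157 and 106 in Confine, and the rise was 7.15-fold (log2 fold change 2.84, SE 0.35, adjusted p = 9.83e-06). Leaving out single libraries gave 2.64 to 3.03. Lama5, the widely expressed α5 chain, remained the main α chain, with 31.4, 33.9 and 25.6 CPM in Ctrl and 40.3 and 62.7 CPM in Confine (log2 fold change 0.76, SE 0.21, adjusted p = 0.0119), a call lost without Confine library 3 (0.41, adjusted p = 0.372). Lama5 exceeded Lama4 per length by 68.7, 43.3 and 39.9 times in Ctrl and by 8.06 and 15.8 times in Confine. Lama2, the α2 chain of muscle basement membranes, had only 7 to 17 counts in Ctrl and 4 and 3 in Confine and was not called (log2 fold change -1.74, SE 0.75, adjusted p = 0.107).

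For the β and γ chains, Lamb1 rose from 24.9, 26.2 and 16.6 CPM to 38.3 and 44.5 CPM (log2 fold change 0.87, SE 0.21, adjusted p = 0.00446), a call lost without Confine library 3 (adjusted p = 0.0937). Lamb2, the other β chain, had 111, 105 and 86.2 CPM in Ctrl and 99.0 and 110 CPM in Confine, with overlapping groups and no call (log2 fold change 0.05, SE 0.18, adjusted p = 0.887). The ratio of Lamb2 to Lamb1 per length was 7.30, 6.55 and 8.48 in Ctrl and 4.21 and 4.03 in Confine. Lamc1, the common γ1 chain, had both Confine libraries, at 65.5 and 72.5 CPM, above the Ctrl range of 42.8 to 56.2 CPM but was not called (log2 fold change 0.47, SE 0.18, adjusted p = 0.0741), although its adjusted p was 0.0166 without Ctrl library 2 and 0.0300 with the identical columns counted as 2 samples.

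**Figure D5:**
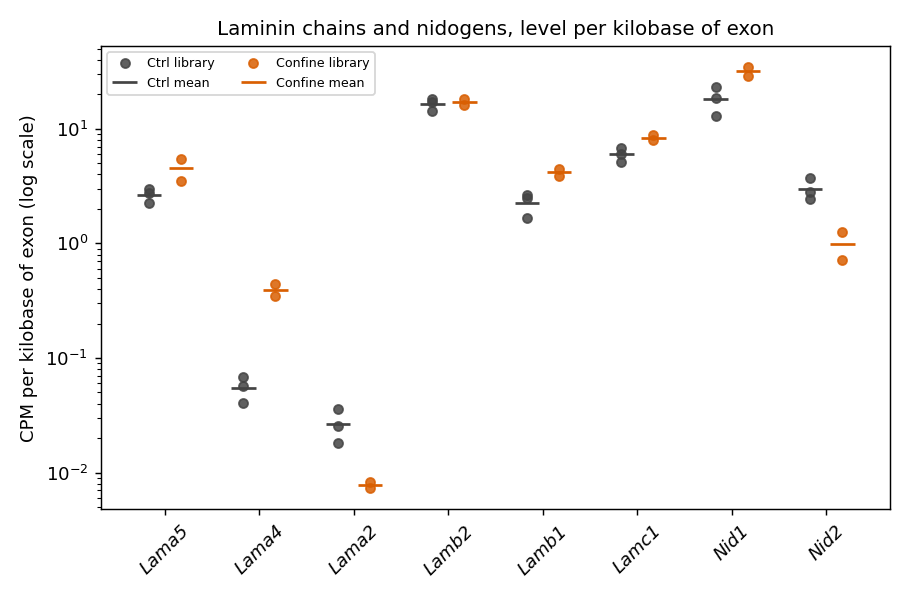
Normalized CPM per kilobase of exon (y axis, log scale) in each library for 6 laminin chains and 2 nidogens, with points for libraries and bars for group means. Lamb2 stays level (16.6 and 17.2), Lama4 rises from 0.0551 to 0.394 but remains below Lama5, and Nid1 and Nid2 part.

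Other genes of the same pathways were taken from lists of matrix proteins, of the enzymes that build or modify glycosaminoglycan chains, and of matrix receptors. Among 78 further core matrix glycoproteins and proteoglycans 50 were tested. Of these 50 genes 18 were higher and 8 lower, and the median log2 fold change was 0.39. Over all tested genes, by comparison, 12.8% were called higher and 10.2% lower. Podn, a small leucine-rich proteoglycan called podocan, rose from 1.02 to 1.76 CPM up to 18.7 and 20.8 CPM (log2 fold change 3.77, SE 0.26, adjusted p = 6.04e-09). Fndc1 (2.97) and Ccn2, which encodes a matricellular protein (2.24), came next. Abi3bp, which binds cells and integrins, fell from 68.9 to 85.3 CPM down to 4.12 and 5.40 CPM (log2 fold change -4.04, SE 0.23, adjusted p = 6.26e-10). After it came Matn4 (-3.05), Ccn5 (-1.33) and Omd (-1.16). Of the laminin α chains outside the set Lama1 had no count, and Lama3 had 0 to 4 counts in Ctrl and 6 and 7 in Confine.

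Proteoglycan cores need glycosaminoglycan chains, and of 43 enzyme genes 37 were tested, with 10 higher, 4 lower and a median log2 fold change of 0.17. The 10 higher genes include Sulf1 (1.12) and Sulf2 (1.11), which remove sulfate from finished chains and do not build them. Over all tested genes 12.8% were higher and 10.2% lower, so the lower count is near the background. Ugdh, which makes UDP-glucuronate, the precursor of these chains and of hyaluronan, rose from 163 to 225 CPM up to 625 and 627 CPM (log2 fold change 1.62, SE 0.19, adjusted p = 4.17e-06). The chondroitin synthase Chsy1 rose by a log2 fold change of 1.46 (SE 0.18, adjusted p = 1.15e-05), and the chondroitin sulfotransferases Chst3 and Chst11 rose by 1.89 and 1.54. Downregulated were the heparan sulfate 6-O-sulfotransferases Hs6st2 (-1.62, SE 0.20, adjusted p = 7.60e-06) and Hs6st1 (-1.04, SE 0.23, adjusted p = 0.00259), together with Csgalnact1 (-1.03), which starts chondroitin chains, and Uxs1 (-0.65), which makes UDP-xylose for the linker.

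Among 31 matrix receptor genes 24 were tested. Of these 24 genes 11 were higher and 2 lower, and the median log2 fold change was 0.57. Over all tested genes, by comparison, 12.8% were called higher and 10.2% lower, so the lower count was not above the background. Sdc4, a heparan sulfate proteoglycan of the plasma membrane that acts with integrins as a fibronectin receptor, rose from 2050 to 2840 CPM up to 10900 and 11500 CPM (log2 fold change 2.15, SE 0.19, adjusted p = 1.33e-07). The laminin receptor chain Itga7 rose from 3.28 to 5.44 CPM up to 51.1 and 58.8 CPM (log2 fold change 3.59, SE 0.22, adjusted p = 1.70e-09). Itgb3, the β3 chain, rose by a log2 fold change of 3.05, and the syndecan Sdc3 by 1.76. The collagen receptor chain Itga1 fell from 15.0 to 22.2 CPM down to 3.04 and 4.13 CPM (log2 fold change -2.43, SE 0.26, adjusted p = 1.50e-06), and Itga3, a chain of a laminin receptor, fell by 1.35 on the log2 scale (SE 0.19, adjusted p = 3.87e-05). Of the integrin chains that bind fibronectin, Itga5 had a log2 fold change of 0.47 (SE 0.19, adjusted p = 0.0864) and Itgb1 of 0.30 (SE 0.20, adjusted p = 0.322). Neither was called, while Fn1 was. Itga5 stood at 125 and 119 CPM in Confine, above the Ctrl range of 78.0 to 107 CPM, whereas the groups overlapped for Itgb1. Itgav was called higher (log2 fold change 0.85, SE 0.20, adjusted p = 0.00494). Itga5, Itgb1 and Itgav were named after their values were seen.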

How the data were processed

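MEF cells of 2 groups, Ctrl and Confine, were profiled by RNA-seq of poly(A) RNA. The authors deposited raw counts per gene in 6 columns, made, per the submitters' processing notes, with Trim Galore 0.6.10, HISAT2 2.1.0, SAMtools 1.5 and featureCounts on build mm10. The library preparation removed the strand made with dUTP. The annotation and the strand setting of the counting were not given in the sources used here, so a gene and an overlapping gene on the other strand might not be separated. Of 55335 gene identifiers 55154 matched GENCODE M21 without the version (54587 with it), which supplied symbols, positions and exon lengths.

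Columns were assigned to samples by name. Confine columns 1 and 2 were identical and entered as 1 library. Low genes were removed with filterByExpr, TMM factors set the scale, and edgeR 4.0.16 (R 4.3.3) fitted a quasi-likelihood model with group as the only term and Benjamini-Hochberg adjustment over 15881 genes. Each standard error was the log2 fold change divided by the square root of F. The scripts were tested on simulated data. The alternatives were RLE size factors, library size alone, no filter, a minimum of 10 counts in every library, DESeq2 1.42.0, limma-voom (limma 3.58.1), the replicate number as a block, both identical columns as samples, each library left out, and the cutoff of 1.5 on the log2 fold change. Full values were given for genes with an adjusted p below 0.05 and an absolute log2 fold change above 1 and for the gene with the highest level per kilobase of each class. From each pathway list up to 4 genes per direction with the largest fold change among called genes with a mean of at least 50 counts were named. A gene that this rule names is not reported here. The members and lists were chosen with earlier results of these data known. RefSeq promoter windows matched 28 of the 43 genes, and the motifs were searched in the 250 bases before the start on both strands. Detection limits cover counting error only.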

Additional observations from a re-analysis of the deposited data

How the results depend on the processing

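Of the 43 genes, 18 were called higher and 8 lower. These counts were 18 and 8 with RLE size factors, 12 and 12 with library size alone, 19 and 8 without a filter, 18 and 7 with at least 10 counts in every library, 17 and 8 with DESeq2, 18 and 9 with limma-voom, and 20 and 10 with the identical columns as 2 samples. With the cutoff of 1.5 they were 3 and 4. Leaving out single libraries gave 12 to 18 higher and 6 to 8 lower genes, where the fits without a Confine library assume that the lone one varies like the others. With library size alone 6 calls were lost (Lama5, Spon2, Mfap5, Fbln1, Fbn2 and Bgn) and 4 lower calls were gained (Thbs1, Spon1, Mfap4 and Vcan), and the log2 fold changes of Sparc (-0.11), Lamb2 (-0.16) and Thbs2 (-0.11), none of them called, changed sign. With single libraries left out these ran from -0.04 to 0.23 for Sparc, from -0.07 to 0.12 for Lamb2 and from -0.28 to 0.66 for Thbs2. The Confine share was 1.06% of raw counts and 1.15% of TMM-normalized CPM.

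With the replicate block, 14 genes were higher and 7 lower when the repeated library was taken as number 2, and 18 and 9 when it was taken as number 1. As number 2 the calls of Mfap5, Fbln5, Fbln1, Fbn2 and Bgn were lost, and as number 1 that of Fbn2. Deviations of same-numbered libraries correlated at -0.0531 and 0.0521 over 15881 genes. These values do not show pairing, and they cannot settle whether same-numbered libraries shared a culture or day. Uncalled genes changed sign under the block, Thbs2 to -0.25 and Sparc to -0.04. Low counts limit Mfap4, Lama2 and the 4 genes not tested, and with no filter Dcn was also called higher. No called gene changed direction in these fits, and the cause of the lost calls was not tested.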
